A study of Mus musculus with 109 samples.

Results

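The 4 Id genes (Id1, Id2, Id3 and Id4), the BMP receptors Bmpr1a and Bmpr2, and the Smads Smad1, Smad4, Smad5 and Smad7 were followed through single cells of the neonatal mouse cerebellum. These 10 genes were chosen by symbol, and all 10 were rows of a count table of 15973 genes, 1 column per cell. The cells came from cerebella of C57BL/6 mice at postnatal day 7, were enriched for granule cell progenitors (GCPs) on a Percoll density gradient and were captured on C1 Fluidigm chips for Smart-seq, which reads whole transcripts without molecular identifiers. The labels named no treatment, no genotype beyond the strain and no animals. The only labelled unit above the cell was a run number in the titles, by which the cells fell into 6 library groups (18 or 19 cells in each). Nothing in the labels said what a library group shared, so a p-value over library groups measured only the spread between them, which may be technical.

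Bone morphogenetic proteins (BMPs) are secreted ligands that bring type I receptors such as Bmpr1a together with type II receptors such as Bmpr2. The type I kinase then phosphorylates Smad1, Smad5 or Smad9, these join the common partner Smad4, and the complex switches on target genes, of which the Id genes are classical examples, as is the inhibitory Smad7 that dampens the pathway. Id proteins carry a helix-loop-helix without a DNA-binding region and hold back E proteins (Tcf3, Tcf4, Tcf12), the partners that proneural factors such as Atoh1 and Neurod1 need. In the developing cerebellum BMPs are known to oppose the proliferation of GCPs that Sonic hedgehog drives.

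The sequence before a RefSeq start is shown for Id2 and Id4. These genes stood at opposite ends of the family in the number of cells that held them. The letters GGCGCC, searched on both strands and identical on both, are a core to which BMP-responsive Smads can bind, and they are in capitals. They were present in the 250 bases before the start of 9.59% of 32851 mouse promoters of RefSeq (GRCm38.p6). The Id4 stretch ran from base 250 to base 1 before the RefSeq start at chr13:48260866-48261115 on the plus strand. The Id2 stretch was the 89 bases farthest from the RefSeq start, chr12:25096254-25096342 on the minus strand. No annotated exon covered it, but it lay inside the Id2 gene of the GENCODE annotation, so it was not upstream of the annotated gene.
Id2: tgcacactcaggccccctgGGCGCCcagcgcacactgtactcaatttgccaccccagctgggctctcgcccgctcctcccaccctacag
Id4: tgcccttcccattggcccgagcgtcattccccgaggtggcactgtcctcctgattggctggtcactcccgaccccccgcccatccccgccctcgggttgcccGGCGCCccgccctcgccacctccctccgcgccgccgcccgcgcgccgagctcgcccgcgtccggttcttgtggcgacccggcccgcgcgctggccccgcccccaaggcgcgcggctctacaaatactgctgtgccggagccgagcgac
In the GRCm38 annotation of GENCODE, Id1 lies at chr2:152736251-152737410, Id2 at chr12:25093799-25097140, Id3 at chr4:136143497-136145755 and Id4 at chr13:48261228-48266026. The core began 231 bases before the Id2 start and 148 bases before the Id4 start. It also lay 198 bases before the Bmpr1a start, 105 bases before the Bmpr2 start and 19 bases before 1 of 3 Smad5 starts. The core was not found in the same window of Id3 or Smad1. No RefSeq window was at hand for Id1, Smad4 or Smad7. Another sequence searched, GTCTAGAC, was found in none of the member windows and in 0.167% of the 32851 promoters. All 250 bases of the Bmpr2 and Id3 windows lay in annotated exons of these genes. The Bmpr1a window lay inside the annotated Bmpr1a gene, with 141 of its bases in exons. A match of letters is a description of the sequence and not a measured binding site.

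Counts were turned into CPM (1000000 times the count over the cell's total). The totals ran from 15071 to 8616017 with a median of 3604792, and no pair of cells held identical counts. Cells with Mki67, a gene of proliferating cells, at 100 CPM or more were called Mki67-high (32 cells, 3 to 8 per library group) and those under 10 CPM Mki67-low (75 cells, 10 to 15 per group), with 2 cells in between. The nearest cells inside and outside these limits were at 132 against 66.4 CPM and at 9.27 against 21.3 CPM. Of the defining genes of the granule lineage (Atoh1, Zic1, Zic2, Barhl1, Pax6, Neurod1, Meis1, Rbfox3), at least 5 reached 50 CPM in 43 cells. An astroglial list (Slc1a3, Slc1a2, Apoe, Aldoc, Aqp4, Gja1, Fabp7, Sparcl1) reached the same mark in 5 cells, 3 of them Mki67-high and 2 Mki67-low. For lists of 5 or 6 genes, 4 genes at 50 CPM were enough. An inhibitory interneuron list, of 6 genes, was carried by 1 cell and an oligodendrocyte lineage list, of 8 genes, by 0 cells. A microglia list was carried by 0 cells, but only 5 of its 7 genes were in the table, so all 5 had to reach 50 CPM. Too few genes of the endothelial and mural (4 of 8), Purkinje (3 of 5) and choroid plexus (1 of 5) lists were in the table for any cell to carry them, so these cell types were not checked.

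Of the 10 genes only Id2 reached 10 CPM in most cells. Id2 had a count in 104 cells (95.4%, 95% Wilson interval 89.7 to 98.0, which covers counting error only) and reached 10 CPM in 81 and 100 CPM in 78. Its level over all cells was 0 CPM at the lowest, 623 CPM at the median and 10707 CPM at the highest. Each of the other 9 genes had a median over all cells of under 1 CPM, and 0 CPM for Id1, Id3, Id4, Bmpr2 and Smad7.

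The type I receptor Bmpr1a had a count in 59 cells but reached 10 CPM in 32, and the type II receptor Bmpr2 had a count in 42 and reached 10 CPM in 13. Of the receptor-activated Smads, Smad1 was at 10 CPM or more in 31 of the 62 cells with a count. Smad5 had a count in 79 cells and was at 10 CPM or more in only 21 of them. The median count where Smad5 was found was 3 reads, so most of its detections were of a few reads. The common Smad4 reached 10 CPM in 34 of 71 cells with a count, and the inhibitory Smad7 in 7 of 16, at no more than 92.5 CPM. Id1 reached 10 CPM in 10 of 25 cells, Id3 in 5 of 13 and Id4 in 5 of 6. The bars of cells by level show how much of each detection lay under 10 CPM.

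**Figure D1:**
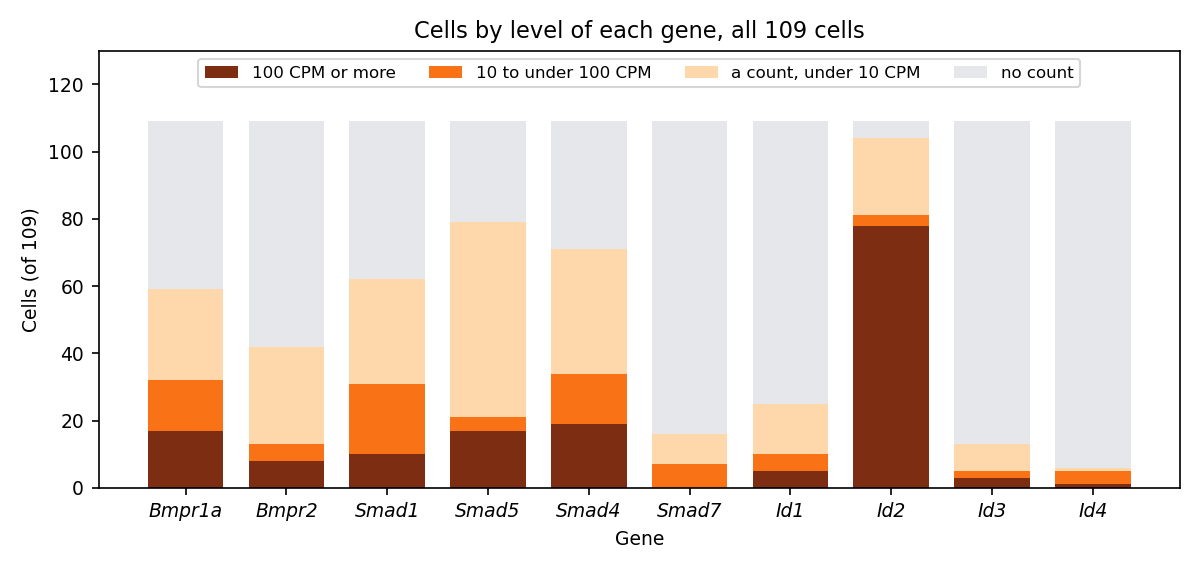
Number of cells of all library groups (vertical axis) in which each gene had 100 CPM or more, 10 to under 100 CPM, a count under 10 CPM, or no count. Id2 is at 100 CPM or more in 78 cells, while most cells with a Smad5 count hold it under 10 CPM.

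Per kilobase of merged exons Id2 had the highest mean level, at 409 ± 135 CPM per kilobase (SD over the 6 library groups), and was above Smad5, the next in order, in all 6 groups. Smad5 followed at 35.7 ± 30.3, Bmpr1a at 32.2 ± 30.4 and Smad4 at 29.8 ± 21.3 on the same scale. These 3 did not stand apart, since Smad5 was above Bmpr1a in 3 of 6 groups and Bmpr1a above Smad4 in 3 of 6. Id1 had 20.1 ± 23.7, Id3 12.5 ± 18.9, Smad1 7.46 ± 5.86 and Bmpr2 5.22 ± 5.11 CPM per kilobase, and neighbours in this order changed places between groups. Id4 at 1.23 ± 2.13 and Smad7 at 0.543 ± 0.484 were the lowest. Single cells weighed heavily in these means: the cell with the most held 71.5% of all Id4 CPM, 50.5% of Id1 and 49.0% of Id3, against 9.85% of Id2.

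Few cells held several pathway components, each of which was itself at 10 CPM or more in a minority of cells. At 10 CPM or more, 40 cells held either receptor and 5 held both, 4 of these Mki67-high and 1 Mki67-low. Bmpr1a was at that level in 38.5% of the cells with Bmpr2 at that level, and in 29.4% of all cells. Either of Smad1 and Smad5 was at that level in 46 cells, and either receptor, either of these Smads and Smad4 together in 6 cells. No cell held both receptors, a receptor-activated Smad and Smad4 at that level, and a count of 0 leaves room for up to 2.75% of cells. Dropout of low transcripts in single-cell libraries cannot be told apart from absence here.

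Id3 and Id4 were held by the same 5 cells, and these were the 5 cells that carried the astroglial list. Id3 stood at 51.6, 77.7, 161, 943 and 1189 CPM in these cells and at no more than 0.819 CPM in all others. Id4 stood at 12.5, 21.3, 40.5, 71.4 and 366 CPM in the same 5 cells and at 0.176 CPM in the 1 other cell with a count. The levels of the 5 cells and of the rest did not overlap for either gene, and neither gene had been used to pick the cells. Of all 15973 genes, 7 (0.0438%) were likewise higher in each of the 5 cells than in any other cell, Id3 and Id4 among them. The others were Agmo, Ccdc80, Col1a2, Itih5 and Mlc1, and 0 genes of the astroglial list were among the 7. The 5 cells lay in library groups 3, 5 and 6, and groups 1, 2 and 4 had no count of Id3 or Id4 in any of their 55 cells.

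For the other members the levels of the 5 cells overlapped with those of the rest. Id2 ran from 105 to 10707 CPM in them, and the highest Id2 value of all cells was in a Mki67-low cell of group 6 that also had the highest Id3 and Id4. Bmpr1a had a count in all 5 (9.75 to 1187 CPM) against 54 cells (51.9%) of the rest. Id1 was at 0, 0.901, 12.9, 28.1 and 43.0 CPM in the 5. It had a count in 4 of the 5 against 20.2% of the rest and reached 10 CPM in 3 of the 5 against 7 cells of the rest, while the 5 cells at 100 CPM or more of Id1 carried no astroglial list. The 5 cells are called astroglial for that list alone. Of them 2 had unusually many genes with a count (12684 and 13533, against a median of 4312). Dcx, a gene of young neurons described below, was at 288, 756, 1061 and 1259 CPM in 4 of the 5 and at 5.40 CPM in the other. Whether any of the 5 was captured with another cell was not tested.

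**Figure D2:**
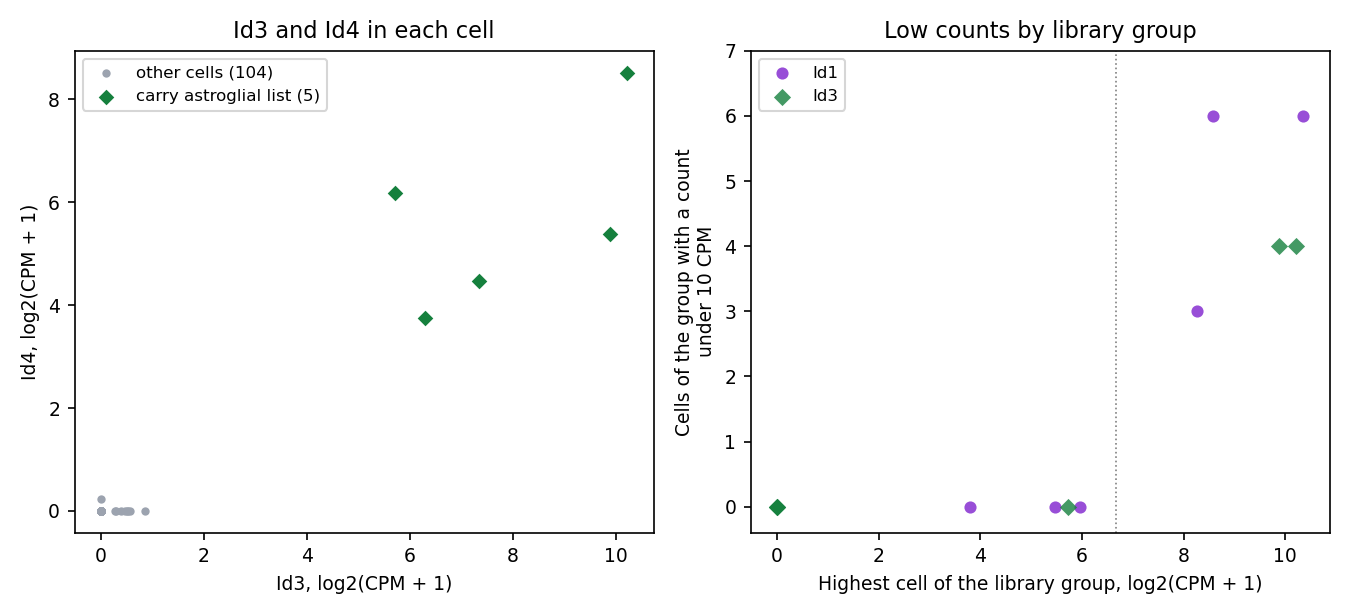
Left, log2(CPM + 1) of Id3 (horizontal axis) and Id4 (vertical axis) in each cell, with the 5 cells that carry the astroglial list as diamonds and all other cells as dots; the diamonds lie apart from all dots. Right, for Id1 and Id3, the number of cells of a library group with a count under 10 CPM against the highest level in that group as log2(CPM + 1), with the dotted line at 100 CPM; low counts occur only to the right of the line.

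For Id1 and Id3, counts under 10 CPM were found in some library groups and not in others. Id1 reached 1309 CPM in a cell of group 1, 306 CPM in group 2 and 381 CPM in group 3, and 6, 3 and 6 further cells of these groups had Id1 counts under 10 CPM. In groups 4, 5 and 6, whose highest cells were at 61.6, 43.0 and 12.9 CPM, 0 of 54 cells had such a count. For Id3 the highest cells were at 943 CPM in group 3 and 1189 CPM in group 6, with 4 low counts in each, and 0 of 73 cells in the other groups had one. For Id2, Bmpr1a and Smad5 all 6 groups held a cell at 100 CPM, so such a difference between groups could not be looked for. Smad1, Smad4, Bmpr2 and Smad7 did not share the pattern in full. In the library group without a cell at 100 CPM, low counts were present for Smad1 (27.8% of cells against 28.6% in the other groups), for Smad4 (27.8% against 35.2%) and for Bmpr2 (11.1% against 29.7%). Smad7 had 9 low counts although no group held a cell at 100 CPM. Id4 had 1, in group 5, whose highest cell was at 71.4 CPM, and not in group 6, which held its highest cell of all. Id1 and Id3 were singled out after their values were seen, and passage of reads between the libraries of a group was not tested. For Id1 the cell at 265 CPM in group 2 rested on 4 reads, since it was the cell with the lowest total.

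Id2 divided the cells into those at 16.5 CPM or more (81 cells) and those at 8.99 CPM or less (28 cells). Both kinds were present in all 6 library groups and had close median numbers of genes with a count, 4316 and 4312. The granule lineage list was carried by 39 of the 81 cells with Id2 (48.1%) and by 4 of the 28 without (14.3%). The share was higher with Id2 in all 6 groups, from 38.5 to 64.3% against 0 to 50%. The groups held only 4 to 7 cells without Id2, and in group 2 the shares were 57.1% against 50% (2 of 4 cells). How often other genes divide the cells in this way was not counted. This split was chosen after its values were seen and is given with no test.

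The comparison of Mki67-high with Mki67-low cells asked whether dividing and non-dividing cells differed in the pathway. Id2 was at a median of 273 CPM in Mki67-high and 839 CPM in Mki67-low cells. Its mean log2(CPM + 1) over library groups ran from 5.71 through 6.80 to 8.42 (lowest, median, highest) in Mki67-high cells. In Mki67-low cells it ran from 7.02 through 7.73 to 9.15, so the ranges overlapped widely. The difference was -0.95 ± 0.56 (SE, n = 6 library groups) on this scale, lower in 4 of 6 groups and higher in 2 (exact sign-flip p = 0.156, adjusted p = 0.558). The largest gap was in group 5, where the difference was -3.44, and without that group it was -0.45.

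Bmpr1a had the largest difference among the members, and it too stayed within the spread. Its mean log2(CPM + 1) over library groups ran from 0.58 through 3.68 to 5.64 in Mki67-high cells and from 1.09 through 1.44 to 4.26 in Mki67-low cells. The difference was 1.55 ± 0.99, higher in Mki67-high cells in 4 of 6 groups (exact sign-flip p = 0.188, adjusted p = 0.585). Groups 1 and 6 went against the rest, and group 6 had the highest Mki67-low level and the lowest difference, -1.79. An antisense gene, Gm17110, overlaps Bmpr1a and is listed in the table, and the strand setting of the counting was not given in the sources used here.

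The other members differed by less. Smad4 had a difference of 0.92 ± 0.81, Bmpr2 and Smad1 each of 0.52 (SE 0.57 and 0.50) and Smad5 of 0.29 ± 0.90 in mean log2(CPM + 1). Leaving out 1 library group at a time gave 0.41 to 1.39 for Smad4, 0.09 to 0.82 for Bmpr2, 0.20 to 0.90 for Smad1 and -0.29 to 0.76 for Smad5. Id3 differed by 0.18 ± 0.13 (0.08 to 0.23 with a group left out), Id1 by 0.09 ± 0.40 and Smad7 by 0.01 ± 0.21. Id4, with a count in 6 cells, was not tested on this scale. The 9 tested members had a median difference of 0.29, near the median of 0.30 over all 11473 genes with a count in at least 10 cells. No member moved the same way in all 6 groups, which gives the smallest p that 6 groups allow (0.0312). Of all genes tested 6.64% were higher in all 6 groups and 1.04% lower, the lowest adjusted p was 0.407, and none was under 0.05.

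**Figure D3:**
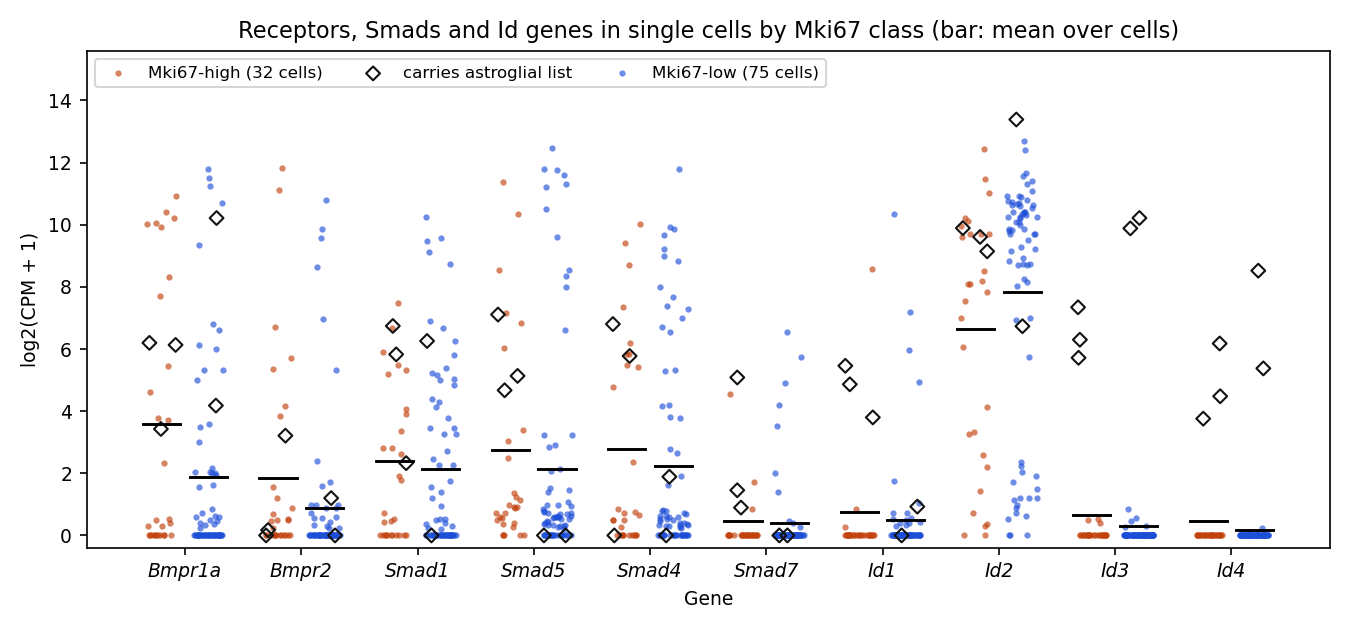
log2(CPM + 1) (vertical axis) of each member in 32 Mki67-high and 75 Mki67-low cells, with a dot per cell, an open diamond for each of the 5 cells with the astroglial list and a bar at the mean over cells. Id2 is at 100 CPM or more in most cells of both classes, while all cells with Id3 or Id4 at 10 CPM or more are diamonds.

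Counts were summed per class and library group and tested with edgeR's quasi-likelihood test, and 2 of 9084 genes passed an adjusted p of 0.01 (0.022%), both higher in Mki67-high cells. These were Tacc3 and Cdc20, which act in mitosis and are named after their values were seen. With the library group as a block in the fit, 0 genes passed. No member passed. The log2 fold change of Id2 was -0.43 ± 0.52 (adjusted p = 0.889), that of Bmpr1a 0.54 ± 1.26 (adjusted p = 0.95) and that of Smad5 -1.60 ± 1.38 (adjusted p = 0.83). Smad1, Smad7 and Id1 had log2 fold changes of -1.17, -0.73 and -0.09, Smad4 and Bmpr2 of 0.61 and 0.21, and Id3 and Id4 did not pass the filter on low counts. The median log2 fold change over all genes tested was -0.18, and it was 0.08 with another scaling, under which that of Id2 turned to 0.17. With DESeq2, 395 genes passed and no member did.

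The share of cells with a count was higher in Mki67-high cells for several members, but so it was for genes at large. Smad5 was found in 27 of 32 Mki67-high cells (84.4%, interval 68.2 to 93.1) and 52 of 75 Mki67-low cells (69.3%, interval 58.2 to 78.6). The difference within library groups was 11.8 ± 3.01 percentage points and higher in all 6 groups (exact sign-flip p = 0.0312, adjusted p = 0.464), as for 5.36% of all genes. After thinning every cell to 1110182 counts, with the shallowest cell left out, the difference was 0.288 ± 9.0 points, and at 10 CPM or more, a limit chosen after seeing the data, it was 7.61 ± 10.9 points.

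Bmpr2, Smad1 and Bmpr1a showed differences of 17.4 ± 8.36, 15.7 ± 6.48 and 13.3 ± 5.39 percentage points, each with an exact sign-flip p of 0.0625 and an adjusted p of 0.464. The median difference over all genes was 7.21 points, and Mki67-high cells had more genes with a count (median 4968 against 4193). Smad4 differed by 8.25 ± 12.2, Id3 by 4.87 ± 2.28 and Smad7 by 3.16 ± 6.97 points, and Id2 and Id1 by -2.88 ± 5.56 and -5.69 ± 11 points. The summed CPM of the astroglial list also differed, with a median of 337 (0.221 to 23420) in Mki67-high against 52.1 (0 to 50487) in Mki67-low cells. Without the 5 cells that carried the list the Smad5 share differed by 6.97 ± 5.13 points, higher in 5 of 6 groups.

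Dcx, a microtubule-associated protein of young neurons, was at 100 CPM or more in 83 cells (Dcx-high), between the limits in 17 and under 10 CPM in 9 (Dcx-low), and every cell had a Dcx count. The cells nearest to the limits were at 101 against 98.0 CPM and at 7.32 against 10.9 CPM. Library groups 1, 2, 4 and 6 had 1 Dcx-low cell each, so their differences rested on that cell. Of the 9 Dcx-low cells 4 were Mki67-high and 5 Mki67-low, and 1 carried the astroglial list.

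Id2 had its highest mean in Dcx-high cells, but the library groups were divided. The mean log2(CPM + 1) of Id2 was 8.0 in Dcx-high cells, 6.79 between the limits and 4.37 in Dcx-low cells. Id2 reached 10 CPM in 65 of 83, 12 of 17 and 4 of 9 of these cells. The difference between Dcx-high and Dcx-low cells was 3.13 ± 1.93, higher in 4 of 6 groups and lower in groups 1 and 2 (exact sign-flip p = 0.219, adjusted p = 0.678). When Dcx-high cells were compared with all cells under 100 CPM, a limit chosen after seeing the data, the difference was 2.15 ± 1.01, higher in 5 of 6 groups (exact sign-flip p = 0.125). On summed counts the log2 fold change of Id2 was 0.96 ± 1.38 (edgeR, adjusted p = 0.796), and it was -1.42 with another scaling, under which the median of all genes moved from 0.32 to -1.23.

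**Figure D4:**
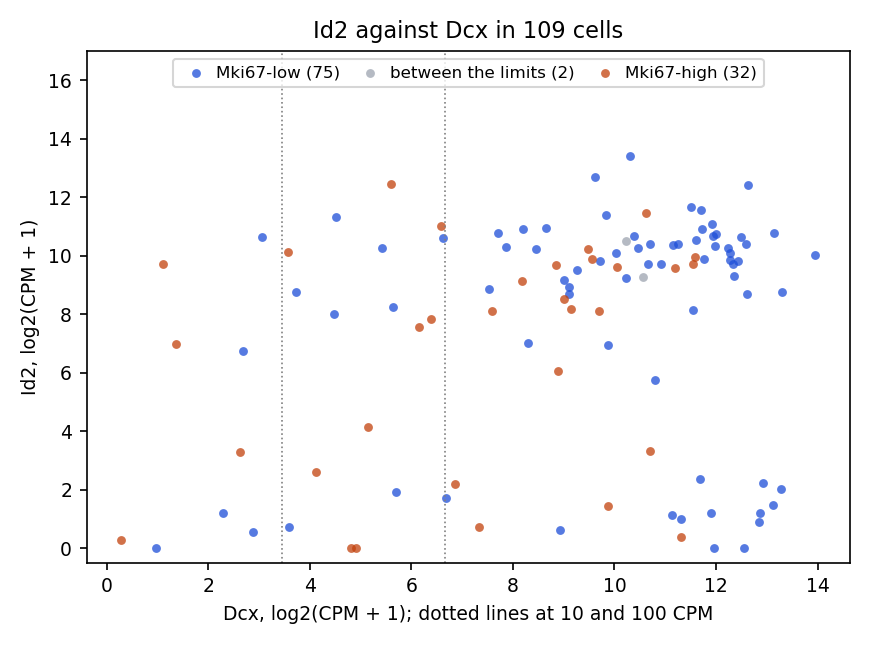
Id2 (vertical axis) against Dcx (horizontal axis), both as log2(CPM + 1), in all cells coloured by Mki67 class, with dotted lines at 10 and 100 CPM of Dcx. Cells without Id2 occur along the whole range of Dcx, and Spearman's rho is 0.20 over all cells.

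Across cells the correlation of Id2 with Dcx was weak (Spearman's rho 0.20 over all cells, 0.28 within 32 Mki67-high and 0.07 within 75 Mki67-low cells). These cells shared libraries and depth, and the values are given as a description. For the other members rho with Dcx lay between -0.14 and 0.04 over all cells.

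Smad7 was the only member that moved the same way in all 6 groups between the Dcx classes. It had a count in 13 of 83 Dcx-high cells and in 0 of 9 Dcx-low cells, where the limit that 9 cells allow is 33.3%. The difference in mean log2(CPM + 1) was 0.48 ± 0.13, higher in 6 of 6 groups (exact sign-flip p = 0.0312, adjusted p = 0.302). With a zero in every Dcx-low group any count in a Dcx-high group gave this sign, and 9.85% of all genes were likewise higher in all 6 groups and 0.488% lower. Against all cells under 100 CPM of Dcx the difference was 0.28 ± 0.21, higher in 4 of 6 groups.

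The remaining members spread across 0 in the Dcx comparison. Smad4 differed by -2.37 ± 1.67, Bmpr2 by -0.90 ± 1.42, Smad1 by -0.76 ± 1.21 and Id3 by -0.42 ± 0.79 in mean log2(CPM + 1). Id1 differed by -0.21 ± 0.62, Smad5 by -0.02 ± 2.07 and Bmpr1a by 0.12 ± 1.06. On summed counts edgeR called 0 of 7670 genes at an adjusted p of 0.01 (0%), while 1451 genes had an unadjusted p under 0.05 and DESeq2 called 1475 of 9025. With the library group as a block in the fit, edgeR called 372 genes and no member. All 372 were higher in Dcx-high cells, and the median log2 fold change of all genes was then 5.36. DESeq2 called 1 member, Smad7, at 5.37 ± 1.69 on the log2 scale (adjusted p = 0.00952), which the edgeR filter on low counts had left out and which without that filter had an adjusted p of 0.0834 in edgeR. Since Smad7 was at 0 in all Dcx-low sums, this fold change is no measure of size.

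**Figure D5:**
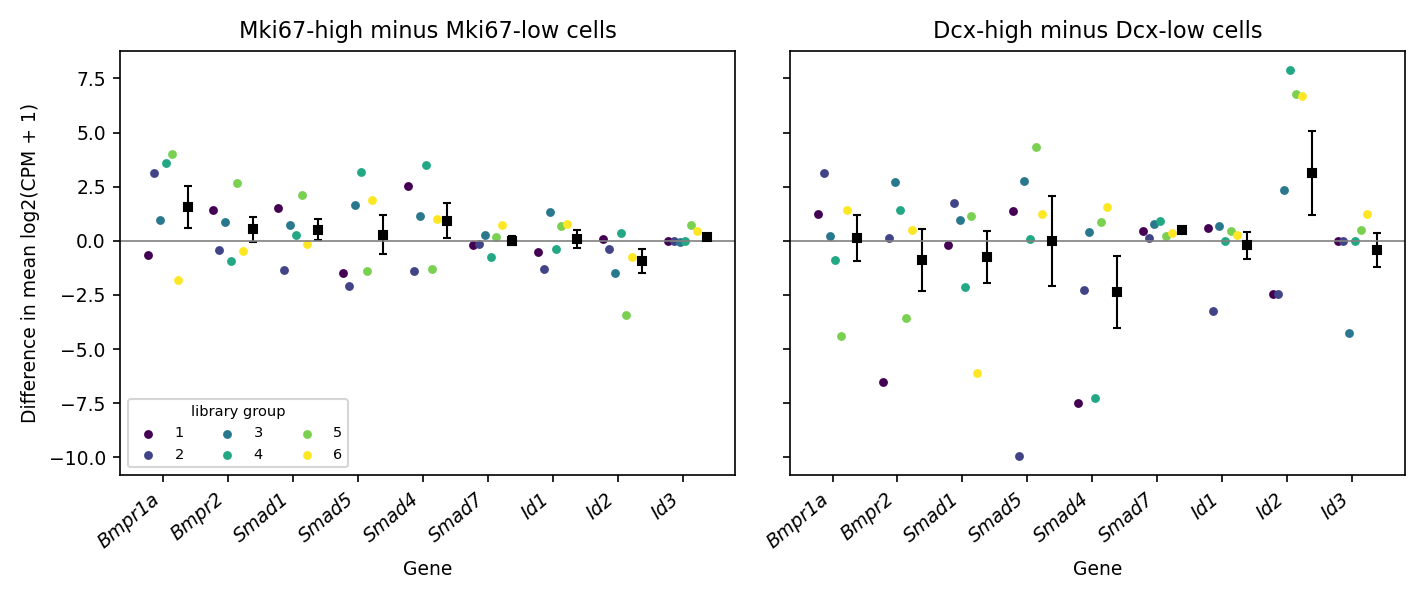
Difference in mean log2(CPM + 1) between classes (vertical axis) for 9 members, with a coloured dot for each of the 6 library groups and a black square with SE for their mean, for Mki67 (left) and Dcx (right). On the left no member has all 6 dots on one side of 0, and on the right only Smad7 does.

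Among Mki67-high cells, Smad1 had a count in 15 of the 19 that were Dcx-high (78.9%, interval 56.7 to 91.5). It had a count in 4 of the 9 between the Dcx limits (44.4%, interval 18.9 to 73.3) and in 2 of the 4 that were Dcx-low, and these intervals overlapped. Within Mki67-high cells the difference between cells above and below 100 CPM of Dcx was 2.39 ± 0.92 in mean log2(CPM + 1), higher in 5 of the 5 groups that held both kinds (exact sign-flip p = 0.0625, the smallest possible, adjusted p = 0.722). Of all genes 5.19% were likewise higher in all 5 groups of Mki67-high cells, and the median difference over all genes was 0.40. In Mki67-low cells the Smad1 difference was -0.31 ± 1.16, higher in 4 of 6 groups. Both Smad1 differences were chosen after seeing the data, and the gap between them was not tested. Smad7 and Id1 had a count in 0 of the 9 Mki67-high cells between the limits, and Id2 in 7 of them.

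The genes whose pattern over all cells was most like that of an Id gene were listed as a description with no test. For Id2 these were Clmp (rho 0.42), an adhesion protein, Celf2 (0.37), an RNA-binding splicing regulator, and Unc13a (0.35), a synaptic vesicle priming factor, and the values without the astroglial cells were 0.41, 0.38 and 0.34. For Id3 they were Slc38a3 (0.57), a glutamine transporter, Sparcl1 (0.52), itself on the astroglial list, and Ednrb (0.50), an endothelin receptor. Without the 5 astroglial cells these fell to 0.39, 0.38 and 0.35. For Id1 they were Btaf1 (0.45), Angptl2 (0.43) and Slc16a6 (0.40), and without the astroglial cells 0.35, 0.37 and 0.32. Id4 had counts in too few cells for such a list.

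Around the members, the table held 46 of 65 further genes of the pathway. Of 13 BMP and related ligands 4 were listed, and the means given here are not corrected for length and set no order between genes. Gdf10 had a mean of 70.1 CPM with a count in 17.4% of cells, and Gdf11 of 56.7 CPM with a count in 49.5%. A single cell held 72.7% of all Gdf10 CPM, 96.6% of Bmp4 and 53.5% of Hey1, and the medians of these genes were 0 CPM. Bmp4 had a mean of 6.71 CPM and Bmp7 of 0.0245 CPM. Among 11 listed receptors and co-receptors Tgfbr1, a type I receptor of the TGF-beta branch, had a mean of 112 CPM and Acvr2a, a type II activin receptor, of 96.2 CPM. Of 12 listed Smads and cofactors Zfp423, which can act with BMP Smads, had a mean of 380 CPM and Skil, a repressor of Smad activity, of 347 CPM. Smad9, the remaining receptor-activated Smad of the branch and named for that role, had a count in 5.50% of cells.

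Among the partners that Id proteins compete for, Tcf4 had a count in every cell with a median of 1733 CPM, and so had Neurod1 with a median of 1591 CPM. Tcf12 had a median of 1.69 CPM and Tcf3 of 0.308 CPM, with counts in 86.2% and 56.0% of cells. Atoh1 had a count in 16.5%. Of 10 listed antagonists Fstl1 had a mean of 183 CPM and Chrd, which binds BMPs outside the cell, with 82.3 CPM. Hey1, 1 of 4 listed further targets, had a mean of 70.6 CPM.

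Between the Mki67 classes 2 of 34 pathway genes tested were higher in all 6 groups (5.88%, against 6.64% of all genes) and 0 lower. Fstl1 had a difference of 3.14 ± 0.76 and Tgfbr1 of 1.15 ± 0.24 in mean log2(CPM + 1), each with an exact sign-flip p of 0.0312 and an adjusted p of 0.407. Between the Dcx classes 2 of 34 were higher in all 6 groups (against 9.85% of all genes), Smurf2, a ubiquitin ligase of Smads, by 1.80 ± 0.54 and Atoh1 by 0.76 ± 0.17 (adjusted p = 0.302 for each). These shares were no higher than those of all genes. In the 9 Dcx-low cells Smurf2 had a count in 2, at 0.43 CPM or less, and Atoh1 in 1, at 0.221 CPM, so nearly any count in Dcx-high cells gave this sign. On summed counts edgeR called 0 of 28 and 0 of 26 of these genes at an adjusted p of 0.01, with 0 in either direction. DESeq2 called 1 of 30 for Mki67, Chrdl2, found in 3 cells, where it called 395 of 10189 genes at large. For Dcx it called 4 of 26, near the share at large of 1475 of 9025 genes. Of the 4 called for Dcx, Smurf2, Atoh1 and Twsg1, an extracellular BMP modulator, were higher in Dcx-high cells. Ep300, a histone acetyltransferase, was lower, with a log2 fold change of -7.07 (DESeq2, adjusted p = 0.000835), and 1 Dcx-low cell held it at 6266 CPM. At an adjusted p of 0.05 edgeR called Smurf2 and Atoh1, 2 of 26, in the Dcx comparison, against 655 of 7670 genes at large.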

How the data were processed

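Single cells of mouse cerebella at postnatal day 7 were profiled by Smart-seq. Reads were aligned to mm10 by the authors with STAR 2.4.1d and counted per gene with HTSeq 0.6.1, per the labels, and the deposited table holds raw counts of 15973 genes, of which 70.9% of values were 0. The annotation and strand setting are not given in the sources used here. No column was left unused, and each gene had a count in 3 or more cells.

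Counts were scaled to CPM by each cell's total. The members and gene lists were chosen with earlier results of these data known. All members were named. Other pathway genes were named for a high mean CPM (up to 4 per list) or, after their values were seen, for a same sign in every group, and 3 genes per Id gene by Spearman correlation among genes found in 20 or more cells. Class sums per library group were tested with edgeR 4.0.16 in R 4.3.3 (TMM, filterByExpr, quasi-likelihood, Benjamini-Hochberg over all genes, threshold 0.01), with DESeq2 1.42.0 as an alternative. Differences of class means of log2(CPM + 1) within library groups were tested with exact two-sided sign-flip tests over the 11473 genes found in 10 or more cells. The fold changes of edgeR carry standard errors derived from the test statistic. The edgeR, DESeq2 and sign-flip tests were also run on simulated data. The simulated counts varied far less than the real sums, whose coefficient of variation in edgeR was 172% for Mki67 and 197% for Dcx. They therefore do not show how the tests behave at that spread. Alternatives covered the scaling, filters, pseudocount, class limits, thinning, library groups left out, and cells with the astroglial list, under 500000 counts or over 10000 genes left out. Promoters are from RefSeq (GRCm38.p6), exons from GENCODE vM21.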

Additional observations from a re-analysis of the deposited data

Results flagged for a closer look

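Of 39 sets of 6 library-group means, 6 held a group farther from the nearest than Dixon's 95% limit. In Dcx-low cells these were the mean log2(CPM + 1) of Id1 in group 2 (4.94, nearest 0.46, 1 cell), of Id3 in group 3 (4.94, nearest 0, 2 cells) and of Id4 in group 3 (2.69, nearest 0). Bmpr1a in group 5 (6.74, nearest 2.24, 3 cells) and Smad5 in group 2 (11.76, nearest 1.23, 1 cell) stood apart in the same class. The Id3 and Id4 values came from the Dcx-low cell that carried the astroglial list. In Mki67-low cells Bmpr1a stood apart in group 6 (4.26, nearest 1.98, 13 cells). The limit flags about 1 in 20 sets of normally distributed values. Dcx-low means of 1 to 3 cells, with zeros among them, are not such values. For Id3 and Id4 in that class every other group was at 0, so any count gave a flag. The number of flags can therefore not be set against chance.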

How the results depend on the processing

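No member passed an adjusted p of 0.01 in any edgeR or sign-flip setting (lowest 0.0421), and DESeq2 called 1 member, Smad7 with Dcx. Of 262 member values under other settings 202 kept their sign and 60 did not, in 32 of 42 results, and of 251 with a library group left out 29 did not. The cause was not tested. No value was possible for Dcx with any count against none, since every cell had a Dcx count. Classes of few cells and genes at a few reads per cell limit these comparisons.

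For Mki67 the 2 genes called became 6 at an adjusted p of 0.05, 395 with DESeq2 (215 higher, 180 lower), 5 with DESeq2 size factors, 1 without astroglial cells, 1 without cells of unusual depth, 0 with any count against none, and 0 to 1 with a library group left out (0 without group 2, 4, 5 or 6). For Dcx the 0 genes became 655 at 0.05, 1475 with DESeq2 and 0 to 0 with a group left out. With the library group as a replicate block, 0 genes were called for Mki67 and 372 for Dcx. Between the high and low sums of a library group the correlations of deviations were low. They were 0.0428 to 0.118 for Mki67 and 0.0383 to 0.117 for Dcx, with 2 and 3 of 6 over 0.1. Yet 5 and 6 of 6 groups correlated best with their own number, so a weak pairing by library group was present. The main edgeR fit did not use this pairing, while the sign-flip tests took differences within groups. Under the block the Mki67 log2 fold changes that turned were Id1 0.36 and Bmpr2 -2.82, and those for Dcx were Bmpr1a 4.14, Bmpr2 6.98, Smad1 3.77, Smad4 0.87 and Smad5 5.99, where the median of all genes was 5.36.

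Mki67 log2 fold changes also turned with any count against none (Id1 7.56, Bmpr2 -0.77, Smad4 -3.04, Smad7 3.16), with DESeq2 (Bmpr2 -0.0175) and with its size factors (Id2 0.17). Differences in mean log2(CPM + 1) turned with any count (Id2 0.42, Id3 -0.13, Smad1 -0.75, Smad4 -2.79, Smad5 -1.21), with a pseudocount of 10 (Smad5 -0.0266, Smad7 -0.0154), without astroglial cells (Id1 -0.22, Smad5 -0.0122, Smad7 -0.20) and without cells of unusual depth (Id1 -0.11, Id3 -0.17, Smad7 -0.18). Differences in percentage points turned with any count (Id1 3.75, Id3 -1.94, Smad1 -5.01, Smad4 -9.72, Smad5 -17.9), at 5 counts (Id1 4.58), at 10 CPM (Id1 4.58, Smad7 -0.865, chosen after seeing the data), without astroglial cells (Smad7 -4.03) and without cells of unusual depth (Smad7 -1.96).

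Dcx log2 fold changes turned with DESeq2 (Id2 -0.16), its size factors (Id1 -0.00116, Id2 -1.42) and within Mki67-low cells (Bmpr1a 4.46, Bmpr2 9.40, edgeR adjusted p = 0.0458). Splits at 100 CPM were chosen after seeing the data. They turned Id2 (-0.54) and Smad1 (1.13) in Mki67-high and Smad4 (0.31) in Mki67-low cells. On mean log2(CPM + 1) they turned Id1 (0.11), Bmpr1a (-0.69), Smad1 (0.11), Smad4 (0.0446) and Smad5 (0.12) over all cells. In Mki67-high cells they turned Id1 (0.97), Id3 (0.80), Smad1 (2.39), Smad4 (0.76) and Smad5 (0.996), and in Mki67-low cells Bmpr1a (-0.25), Bmpr2 (0.87) and Smad4 (0.25). A pseudocount of 10 turned Id1 (0.021), and leaving out astroglial or unusual cells turned Id3 (0.0419) and Bmpr1a (-0.0313).

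With a library group left out, the Mki67 log2 fold changes that turned ran from -3.27 to 2.04 (Id1), -1.37 to 1.25 (Bmpr2), -0.20 to 1.30 (Smad4) and -2.79 to 0.35 (Smad7). Mean log2(CPM + 1) ran from -0.15 to 0.37 (Id1), -0.29 to 0.76 (Smad5) and -0.14 to 0.17 (Smad7), and percentage points from -10.8 to 1.5 (Id1) and -5.46 to 1.54 (Id2). For Dcx, log2 fold changes ran from -1.29 to 4.82 (Bmpr1a), -2.84 to 1.11 (Bmpr2), -2.50 to 2.20 (Smad1) and -2.20 to 8.46 (Smad5). Mean log2(CPM + 1) ran from -0.39 to 0.40 (Id1), -0.76 to 0.35 (Id3), -0.49 to 1.02 (Bmpr1a), -1.62 to 0.23 (Bmpr2), -1.26 to 0.31 (Smad1) and -0.89 to 1.96 (Smad5).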
